A study of Mesocricetus auratus with 21 samples.

Results

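The genes described here are those whose RNA was most abundant in the testis of new-born wild-type golden hamsters (0 dpp, days post partum) relative to every later wild-type age. They were chosen from the wild-type libraries by a fixed formula. The lowest normalised count (CPM, counts scaled to a common library total) of the wild-type libraries of 0 dpp was compared, after adding 1 CPM, with the highest CPM of all later wild-type libraries. Of 22285 genes in the table, 9373 reached 10 CPM in both wild-type libraries of 0 dpp, and the 200 with the largest log2 ratio are the members. The 10 germline genes (Piwil1 to Piwil4, Mael, Ddx4, Ddx25, Dazl, Tdrd1 and Tdrd9) were left out by name.

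Whole testes of 2 genotypes were profiled by bulk RNA-seq after depletion of ribosomal RNA. Wild-type (Mov10l1+/+) and Mov10l1-/- males were sampled at 0, 9, 13 and 21 dpp and as adults, with 2 libraries in each group except wild type at 9 dpp, which has 3. The Mov10l1-/- animals are homozygous for a CRISPR–Cas9 deletion of an exon of the helicase domain, carried in every cell and descended from 1 founder female outcrossed to outbred stock. Adults differed in age, with wild types of 65 and 23 weeks and Mov10l1-/- males of 63 and 53 weeks. Libraries of 0 and 9 dpp were read single-end (75 nt) and those of 13 dpp, 21 dpp and adults paired-end (150 nt). The step from 9 to 13 dpp therefore cannot be told apart from the change of read layout. In both genotypes the libraries of 0 dpp have sample numbers apart from those of all later libraries, for a reason the labels do not give. Any difference between these sets of libraries cannot be told apart from the change since birth. The pair of Mov10l1-/- libraries of 9 dpp carries the same animal code in the labels, and may therefore measure technical spread.

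At birth the hamster testis holds quiescent gonocytes inside cords of fetal-type Sertoli cells, surrounded by a proliferating mesenchyme rich in collagen and other matrix. During the following weeks gonocytes resume division and become spermatogonia, meiosis begins, and fetal growth and matrix genes decline in the somatic compartment. MOV10L1 is an RNA helicase required for the biogenesis of piRNAs, the small RNAs that silence transposons in germ cells. A gene can lose its share of whole-testis RNA because the cells that carry it become rarer, because each cell holds less of it, or because other cells gain RNA, and these cannot be told apart in bulk libraries.

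The targeted gene was examined first. In wild-type testes Mov10l1 stood at 127 and 74.4 CPM at 0 dpp, 35.0, 38.6 and 18.9 CPM at 9 dpp, 56.4 and 110.1 CPM at 13 dpp, 172 and 96.2 CPM at 21 dpp, and 39.9 and 46.2 CPM in adults. The Mov10l1-/- libraries held 15.3 and 14.9 CPM at 0 dpp, 1.45 and 1.45 CPM at 9 dpp, 1.54 and 0.174 CPM at 13 dpp, 0.0784 and 0.126 CPM at 21 dpp, and 1.64 and 1.94 CPM in adults. The genotypes did not overlap at any age, in the direction of the labels.

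Library totals ranged from 3550217 to 77527451 counts. The second wild-type library of 13 dpp was the shallowest, and the replicate pairs of wild type at 13 dpp and of both genotypes at 21 dpp differed most from each other. The scale needs care: the 10 most abundant genes took 10.8 to 12.3% of all counts at 0 dpp but 20.6 to 53.0% at later ages, and CPM on column totals move with that share. In the Mov10l1-/- libraries, the median of all 16346 genes tested was lower by 0.39 (log2) at 9 dpp than at 0 dpp on column totals, and by 0.04 after TMM normalization. At 13 dpp, 21 dpp and in adults the same medians were -0.47, -0.71 and -0.60 on column totals and -0.05, -0.06 and -0.07 after TMM. CPM below are on column totals, and log2 fold changes and their tests are from edgeR with TMM. When TMM-scaled CPM were put into the formula instead, 179 of the 200 genes were chosen again.

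The formula set the wild-type pattern, which is therefore given as a description. The log2 ratio of lowest CPM at birth to highest CPM later was 4.85 for the first member, 2.00 for the median member and 1.70 for the last, that is at least 3.24-fold for every member on the scale of CPM plus 1. The 3 genes just inside the limit stood at 1.698, 1.698 and 1.696 and the 3 just outside at 1.695, 1.692 and 1.685, the last being Nr2f2. In wild type the median member held 70.7 CPM at 0 dpp, 11.2 CPM at 9 dpp, 8.12 CPM at 13 dpp, 3.78 CPM at 21 dpp and 1.74 CPM in adults. The mean at 0 dpp ran from 10.3 CPM to 4109 CPM, the highest being Col1a1. All members together made up 2.67 to 3.26% of the counts of the 4 libraries of 0 dpp and 0.459 to 0.564% of those of the 5 libraries of 9 dpp.

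After birth the decline in wild type continued in most members. Of the 200, 168 were lower at 13 than at 9 dpp, 175 were lower at 21 than at 13 dpp, and 151 were lower in adults than at 21 dpp, and 112 fell at each of the 4 steps by their means. The highest later wild-type library was one of 9 dpp for 140 members, of 13 dpp for 32, of 21 dpp for 14 and of adults for 14. In the adult wild-type testis 68 members averaged below 1 CPM, against 6 at 9 dpp.

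**Figure D1:**
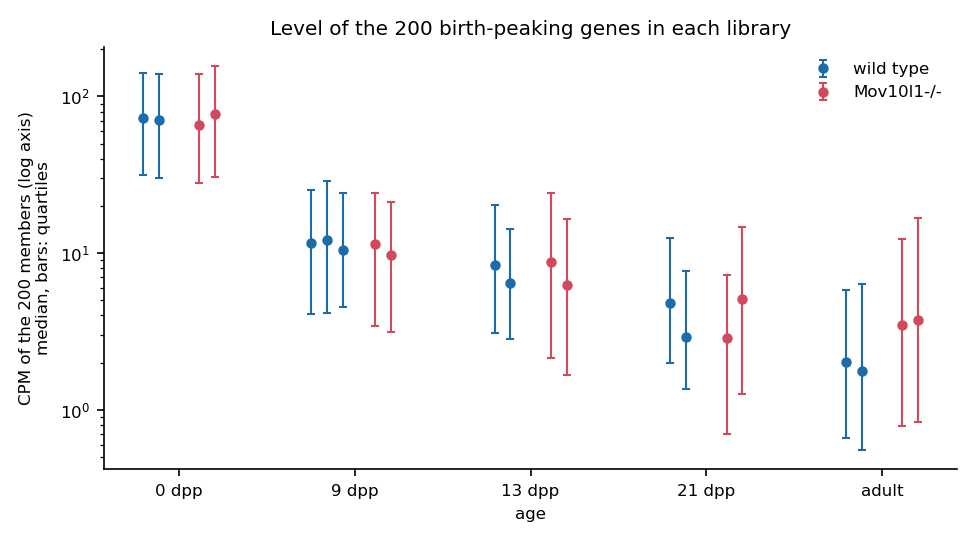
Median CPM of the 200 members in each library (points; log axis), with bars from the lower to the upper quartile of the members, by age and genotype. The 4 libraries of 0 dpp sit between 65.8 and 77.1 CPM, all later libraries sit at or below 12.1 CPM, and in adults the Mov10l1-/- libraries (3.49 and 3.72 CPM) lie above the wild-type libraries (2.01 and 1.78 CPM).

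The Mov10l1-/- libraries took no part in choosing the members, so the change since birth in that genotype is a separate measurement of the same genes. There the median member stood at 69.1 CPM at 0 dpp, 10.8 CPM at 9 dpp, 7.99 CPM at 13 dpp, 4.11 CPM at 21 dpp and 3.58 CPM in adults. For 197 of the 200 members the lowest Mov10l1-/- library of 0 dpp was above every one of the 8 later Mov10l1-/- libraries. The same was true of 55.2% of the 9324 genes with at least 10 CPM in both Mov10l1-/- libraries of 0 dpp on the same scale of column totals. The log2 ratio used to choose the members had a median of 2.00 over them in the Mov10l1-/- libraries, against 0.11 over those 9324 genes, and was above 1 for 187 members and for 17.1% of those genes.

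Tested by edgeR's quasi-likelihood method over all 10 Mov10l1-/- libraries, with Benjamini-Hochberg adjusted p under 0.01, 197 of 200 members were lower at 9 than at 0 dpp and 0 were higher. Among all 16346 genes tested 26.4% were lower and 26.8% higher, and 27.5% were lower among the genes with at least 10 CPM at birth. The median change of the members was -2.17 (log2), with quartiles of -2.99 and -1.72, against -0.04 over all genes tested. At 13 dpp 199 members were lower and 0 higher (background 27.4% and 27.6%, median -2.44), at 21 dpp 196 and 0 (background 32.1% and 31.2%, median -2.98) and in adults 190 (background 34.0%, median -3.20), where 2 were higher (background 33.5%). All 200 members were chosen for their level at 0 dpp in wild type, and a member could pass the filter of these tests through that age alone. These counts are therefore to be read beside the share lower among genes with at least 10 CPM at birth. That share was 31.2% at 13 dpp, 38.7% at 21 dpp and 40.1% in adults. No member was higher at 9, 13 or 21 dpp at an unadjusted p under 0.05 in edgeR either, nor by DESeq2. Comparing libraries of one read layout alone, 0 and 9 dpp, 200 members were lower.

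**Figure D2:**
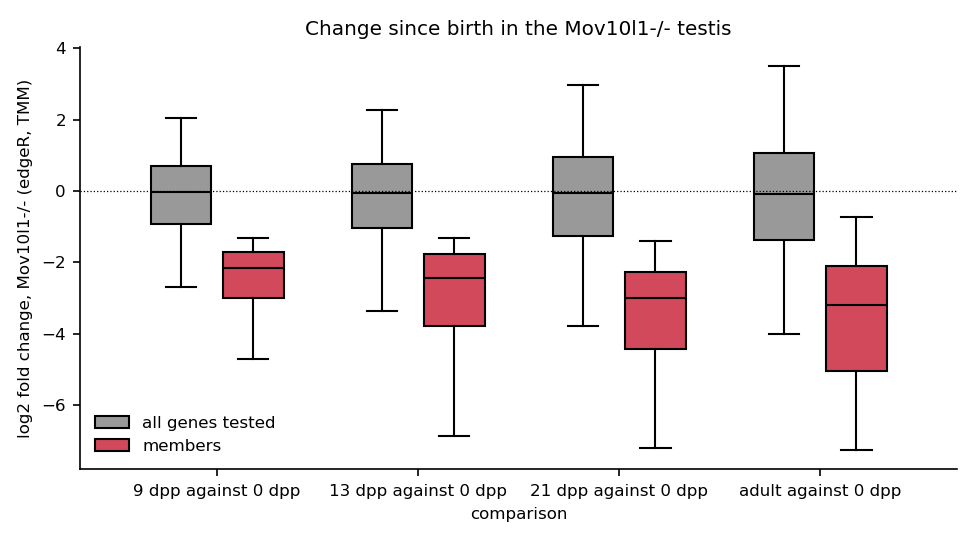
Log2 fold change of each later age against 0 dpp in the Mov10l1-/- testis (edgeR, TMM), for all 16346 genes tested (grey) and for the 200 members (red). Boxes show quartiles with the median and whiskers the central 90% of genes. The medians of all genes lie between -0.07 and -0.04, and those of the members between -3.20 and -2.17.

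When the formula was applied to the Mov10l1-/- libraries, its first 200 genes shared 64 with the members, 32.0% of each list, although 167 members were among the first 1000 genes of that order, which are 10.7% of the 9324. In the Mov10l1-/- testis 54 members fell at each of the 4 steps, 139 were lower at 13 than at 9 dpp and 91 were lower in adults than at 21 dpp. The highest later library was an adult one for 35 members in Mov10l1-/-.

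Symbols could be assigned to 34 of the 200 members, 166 having none here. These symbols come from the study's lists of genes that differ between genotypes, so genes with a symbol are no fair sample for genotype: 17 of 34 differed at 21 dpp against 34 of 166 without a symbol, and 7 of 34 against 12 of 166 at 0 dpp. They are described by role, as germline and chromatin genes, matrix and mesenchyme genes, fetal growth genes, cell surface and signalling genes, cytoskeleton and adhesion genes, and the rest. The first member by ratio, ENSMAUG00000014337, has no symbol here but is described as SPOC domain containing 1. It held 207 and 200 CPM in wild type and 128 and 111 CPM in Mov10l1-/- at 0 dpp (-0.73 ± 0.12, edgeR adjusted p = 0.0049). In adults it held 4.02 and 3.56 CPM against 0.264 and 0.22 CPM (-4.18 ± 0.32, adjusted p = 1.79e-05). At 21 dpp it held 0.763 and 0.775 CPM against 0 and 0.0505 CPM (-4.42 ± 0.82, adjusted p = 0.00275), with at most 2 counts in a Mov10l1-/- library. At 9 and 13 dpp both Mov10l1-/- libraries were below every wild-type library, but the difference did not pass the test.

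**Figure D3:**
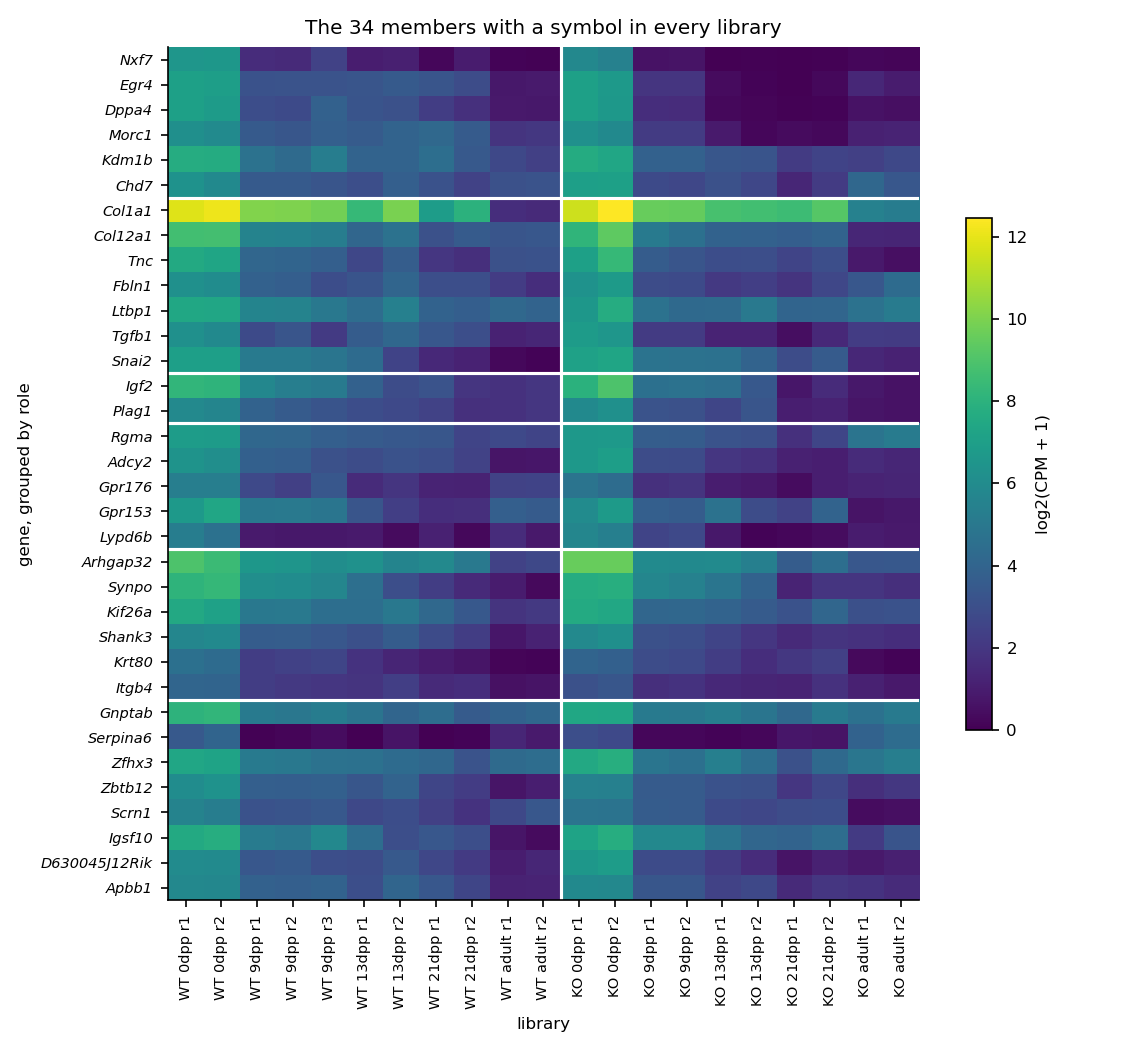
Log2(CPM + 1) of the 34 members with a symbol (rows) in each of the 21 libraries (columns; wild type left and Mov10l1-/- right of the vertical white line, ages from birth to adult within each). Horizontal white lines part the groups germline and chromatin, matrix and mesenchyme, fetal growth, cell surface and signalling, cytoskeleton and adhesion, and the rest. The columns of 0 dpp are the brightest in nearly every row, Col1a1 has the highest values, and Nxf7, Egr4, Dppa4 and Morc1 are darkest in the Mov10l1-/- libraries of 13 and 21 dpp.

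Germline and chromatin genes are described first, Nxf7 and Egr4 having the ranks 4 and 6 among the 200. All 6 (Nxf7, Egr4, Dppa4, Morc1, Kdm1b and Chd7) were lower at each later age than at birth in the Mov10l1-/- testis, with a median change of -4.47 (log2) at 9 dpp. Nxf7, of the family of nuclear RNA export factors, was the member with a symbol and the largest ratio. Its near copies could share reads with it. It held 92.5 and 95.8 CPM in wild type at 0 dpp, then 2.01, 1.79 and 4.53 CPM at 9 dpp, 0.97 and 1.13 CPM at 13 dpp, 0.153 and 0.92 CPM at 21 dpp, and 0.105 and 0.0462 CPM in adults. In Mov10l1-/- it held 56.2 and 44.3 CPM at 0 dpp, 0.502 and 0.59 CPM at 9 dpp, at most 0.0582 CPM at 13 and 21 dpp, and 0.147 and 0.122 CPM in adults. Nxf7 was thus already lower in Mov10l1-/- at birth, without overlap, by a fitted change of -0.86 ± 0.13 (SE, edgeR adjusted p = 0.00404).

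Egr4, a zinc-finger transcription factor needed for male fertility in mice, stayed near its level of 9 dpp until 21 dpp in wild type and was at or below 0.28 CPM in Mov10l1-/- at 13 and 21 dpp. The wild-type libraries held 136 and 127 CPM at 0 dpp, 7.73, 8.09 and 8.03 CPM at 9 dpp, 8.95 and 10.7 CPM at 13 dpp, 8.70 and 6.44 CPM at 21 dpp, and 0.763 and 0.878 CPM in adults. The Mov10l1-/- libraries held 134 and 105 CPM at 0 dpp, 2.75 and 2.75 CPM at 9 dpp, 0.28 and 0.0872 CPM at 13 dpp, 0 and 0.202 CPM at 21 dpp, and 1.64 and 0.929 CPM in adults. The genotypes overlapped at 0 dpp and parted at 9, 13 and 21 dpp, with fitted changes of -1.50 ± 0.11 at 9 dpp (adjusted p = 0.00183) and -5.82 ± 0.62 at 21 dpp (adjusted p = 0.000256).

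Dppa4, a pluripotency-associated chromatin factor of early germ cells, is the one member on the gonocyte list. It stood at 134 and 113 CPM in wild type and 135 and 101 CPM in Mov10l1-/- at 0 dpp. At 9 dpp it held 6.75, 5.94 and 13.8 CPM in wild type and 2.10 and 1.97 CPM in Mov10l1-/-. At 13 dpp it held 8.30 and 7.61 CPM against 0.21 and 0.116 CPM, and at 21 dpp 3.82 and 2.37 CPM against 0.0392 and 0.0758 CPM. Dppa4 differed at 13 dpp, by -5.59 ± 0.57 (adjusted p = 0.0097). It was the one member to do so in the main edgeR fit, with TMM, a filter on low counts and no replicate block. Egr4 did not pass there, at -5.84 ± 0.62 (adjusted p = 0.0101).

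Morc1, an ATPase required for transposon silencing in male germ cells of mice, lies on the same scaffold as Dppa4. It held 72.9 and 61.8 CPM in wild type and 75.9 and 59.1 CPM in Mov10l1-/- at 0 dpp. In wild type it then held 10.8, 8.95 and 12.6 CPM at 9 dpp, 10.99 and 14.6 CPM at 13 dpp, 17.4 and 11.1 CPM at 21 dpp, and 2.66 and 3.05 CPM in adults. The Mov10l1-/- values were 3.44 and 3.47, 0.841 and 0.145, 0.274 and 0.202, and 1.20 and 1.34 CPM at those ages. Its level was lower in Mov10l1-/- at 9 dpp (-1.61 ± 0.17, adjusted p = 0.00679), at 21 dpp (-5.70 ± 0.36, adjusted p = 2.65e-05) and in adults (-1.38 ± 0.26, adjusted p = 0.00186).

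The remaining chromatin members, Kdm1b and Chd7, changed by -4.49 and -4.72 (log2) from birth to 21 dpp in Mov10l1-/-, against -7.24 for Morc1. Kdm1b, a histone H3K4 demethylase that helps to set up maternal imprints, held 208 and 203 CPM in wild type and 203 and 163 CPM in Mov10l1-/- at 0 dpp. At 21 dpp it held 21.5 and 10.1 CPM against 3.53 and 4.72 CPM (-1.64 ± 0.23, adjusted p = 0.000861). Chd7, a chromatin remodeller of neural crest and other progenitors, went the other way at birth: the Mov10l1-/- libraries held 129 and 137 CPM and the wild-type libraries 80.6 and 60.1 CPM (0.95 ± 0.14, adjusted p = 0.00301). At 9 dpp it stood at 5.95 and 5.41 CPM against 10.5, 10.6 and 8.85 CPM.

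Germ-cell markers that are no members also differed between genotypes after birth. These markers were matched through the same symbols as the named members, so they too are no fair sample for genotype. The 11 other measured genes of the gonocyte list, the targeted gene aside, summed to 879 to 1077 CPM in wild type and 1062 to 1215 CPM in Mov10l1-/- at 0 dpp. The sums were 167 to 229 against 97.2 to 106 CPM at 9 dpp, 329 to 383 against 55.5 to 62.9 CPM at 13 dpp, and 354 to 750.4 against 53.8 to 79.3 CPM at 21 dpp. Of the 11, 7 (Tfap2c, Sall4, Lin28a, Tex14, Gtsf1, Etv4 and Uchl1) were below 1 CPM in both Mov10l1-/- libraries of 21 dpp. Of these 7, Etv4 was also below 1 CPM in both wild-type libraries of that age. Kit, a receptor tyrosine kinase on the same list that Leydig cells also carry, did not follow them: it overlapped at 21 dpp, with 23.1 and 37.0 CPM against 57.8 and 34.6 CPM in wild type, and in adults held 101 and 104 CPM against 8.44 and 7.39 CPM (3.47 ± 0.14, adjusted p = 9.09e-07). Ddx4, the germ-cell RNA helicase, held 0.0784 and 0.328 CPM in Mov10l1-/- at 21 dpp against 468 and 179 CPM in wild type. The part of fewer germ cells in the members' differences was not tested.

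**Figure D4:**
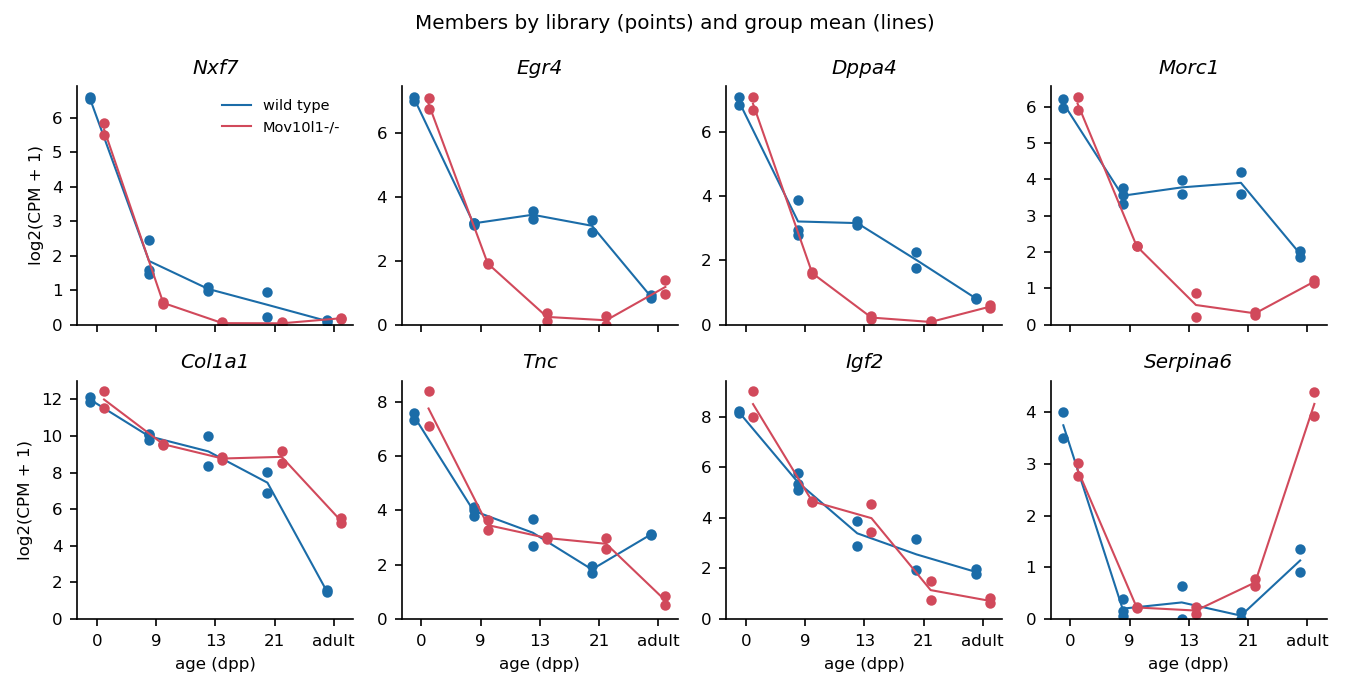
Log2(CPM + 1) of 8 members in each library (points) and the mean of each group (lines), in wild type (blue) and Mov10l1-/- (red), against age. Nxf7, Egr4, Dppa4 and Morc1 are higher in wild type than in Mov10l1-/- at 9, 13 and 21 dpp. Nxf7 was too low at 21 dpp to be tested, with 1 and 19 counts in wild type against 0 and 2 in Mov10l1-/-. Col1a1, Tnc and Igf2 fall in both genotypes, and Serpina6 rises again in the adult Mov10l1-/- testis to 14.3 and 20.1 CPM.

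Matrix and mesenchyme genes formed the next group. All 7 (Col1a1, Col12a1, Tnc, Fbln1, Ltbp1, Tgfb1 and Snai2) were lower at each later age than at birth in Mov10l1-/-, with a median of -3.43 (log2) at 9 dpp, and 0 of the 7 passed the test between genotypes at 0, 9 or 13 dpp. Of the 40 genes on the stroma and matrix list, 7 could be matched to an identifier and 4 of those are members. Col1a1, the main chain of fibrillar collagen I, was the most abundant member with 3685 and 4534 CPM in wild type and 2914 and 5702 CPM in Mov10l1-/- at 0 dpp. It held 1099.9, 1055 and 893 CPM against 761 and 737 CPM at 9 dpp, 322 and 1012 CPM against 455 and 416 CPM at 13 dpp, and 117 and 258 CPM against 371 and 579 CPM at 21 dpp. In adults 2.05 and 1.76 CPM were left in wild type and 44.1 and 37.0 CPM in Mov10l1-/- (4.18 ± 0.20, adjusted p = 1.99e-06).

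Col12a1, a collagen that decorates those fibrils, and Tnc, the anti-adhesive matrix protein tenascin C, ended the other way round. Col12a1 held 422 and 429 CPM in wild type and 288 and 669 CPM in Mov10l1-/- at 0 dpp, and 8.94 and 9.43 CPM against 1.56 and 1.47 CPM in adults (-2.82 ± 0.21, adjusted p = 1.41e-05). Tnc held 189 and 158 CPM against 137 and 333 CPM at 0 dpp, and 16.5, 15.2 and 12.9 CPM against 11.5 and 8.65 CPM at 9 dpp. It then stood at 2.90 and 2.23 CPM against 4.90 and 6.87 CPM at 21 dpp (1.37 ± 0.28, adjusted p = 0.00461) and at 7.52 and 7.86 CPM against 0.793 and 0.44 CPM in adults (-3.87 ± 0.33, adjusted p = 2.81e-05). Tnc was thus higher in Mov10l1-/- at 21 dpp and lower in adults, while both Mov10l1-/- libraries of Col1a1 lay above both wild-type libraries at both ages, a difference that did not pass the test at 21 dpp (1.35 ± 0.51, adjusted p = 0.0541).

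Several of these genes and Igf2 differed between the Mov10l1-/- libraries of 0 dpp. The CPM of the second library were 2.42 times those of the first for Tnc, 2.32 times for Col12a1, 2.17 times for Ltbp1, 2.04 times for Igf2 and 1.96 times for Col1a1, and at least 1.5 times for 24 members in all. Snai2 was 1.15 times as high there, and Tgfb1 was lower, at 0.807 times. The 3 genes of the stroma and matrix list that are no members summed to 781 to 1210 CPM in these libraries, and to 815 to 908 CPM in wild type. Without that library, the change from 0 to 9 dpp in Mov10l1-/- was -3.24 for Tnc in place of -4.00, -1.43 for Col1a1 in place of -1.99 and -1.63 for Ltbp1 in place of -2.28, and each still passed the test. Gpr153 and Igsf10 no longer passed it at 9 dpp without that library (adjusted p = 0.0186 and 0.0488).

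Tgfb1 and Snai2, the growth factor that drives matrix production and a transcription factor of mesenchymal transition, parted from each other between genotypes. Tgfb1 held 76.6 and 59.8 CPM in wild type and 114 and 92.2 CPM in Mov10l1-/- at 0 dpp. At 13 dpp it held 11.4 and 16.9 CPM against 1.40 and 1.37 CPM, and at 21 dpp 9.47 and 7.07 CPM against 0.392 and 1.72 CPM (-2.80 ± 0.46, adjusted p = 0.00164). Snai2 held 129.7 and 133 CPM against 141 and 161 CPM at 0 dpp, and 1.68 and 1.31 CPM against 6.47 and 11.1 CPM at 21 dpp (2.69 ± 0.30, adjusted p = 0.000285). Fbln1, a matrix glycoprotein, and Ltbp1, which tethers latent TGF-β in the matrix, did not pass the test at 21 dpp, with changes of -0.71 ± 0.33 and 0.45 ± 0.26.

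Fetal growth was represented by Igf2, the fetal insulin-like growth factor, and Plag1, a zinc-finger activator of Igf2. Igf2 held 299 and 281 CPM in wild type and 252 and 514 CPM in Mov10l1-/- at 0 dpp, 53.7, 39.6 and 33.0 CPM against 23.6 and 24.7 CPM at 9 dpp, and 13.7 and 6.48 CPM against 22.3 and 9.83 CPM at 13 dpp. At 21 dpp it held 8.09 and 2.81 CPM against 0.705 and 1.87 CPM (-1.75 ± 0.43, adjusted p = 0.00996), and in adults 2.39 and 2.91 CPM against 0.764 and 0.538 CPM (-2.24 ± 0.32, adjusted p = 0.000498). Plag1 stood at 58.2 and 49.8 CPM against 59.5 and 77.1 CPM at 0 dpp, and at 2.47 and 2.96 CPM against 0.617 and 0.513 CPM in adults (-2.48 ± 0.30, adjusted p = 0.000203). Both fell at every later age in Mov10l1-/-, by 8.36 and 6.08 on the log2 scale in adults. Of the 30 genes on the fetal growth list 7 were matched and Igf2 is the one member. The 6 others summed to 146 to 214 CPM in Mov10l1-/- and 52.4 to 85.8 CPM in wild type at 21 dpp. In adults they summed to 141 to 172 CPM against 47.1 to 53.3 CPM. Of the matched genes tested, Igf2 included, 2 were higher and 2 lower at 21 dpp, and 2 were higher and 3 lower in adults.

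Cell surface and signalling genes (Rgma, Adcy2, Gpr176, Gpr153 and Lypd6b) all fell after birth in Mov10l1-/-, and their later courses differed. Lypd6b, a small surface protein that modulates nicotinic receptors, held 38.0 and 24.2 CPM in wild type and 51.3 and 40.2 CPM in Mov10l1-/- at 0 dpp. At 9 dpp it stood at 4.96 and 5.63 CPM in Mov10l1-/- against 0.864, 0.75 and 0.758 CPM in wild type, a change of 2.78 ± 0.15 (adjusted p = 0.000852). At 13 dpp the values were 0.862 and 0.282 CPM against 0.77 and 0.0727 CPM, where the groups overlapped and the gene was too low to be tested.

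Rgma, a co-receptor for bone morphogenetic proteins, and Gpr153, an orphan receptor, moved in opposite directions in adults. Rgma held 120.1 and 115 CPM in wild type and 100.3 and 104 CPM in Mov10l1-/- at 0 dpp, and 5.81 and 4.85 CPM against 26.7 and 36.0 CPM in adults (2.32 ± 0.19, adjusted p = 2.28e-05). Its adult Mov10l1-/- level was still below that at birth, by 0.87 on the log2 scale (SE 0.16, adjusted p = 0.000416). Gpr153 held 12.5 and 10.8 CPM against 0.587 and 0.758 CPM in adults (-4.33 ± 0.24, adjusted p = 3.25e-06), and 30.4, 32.0 and 28.1 CPM against 12.6 and 11.3 CPM at 9 dpp (-1.30 ± 0.08, adjusted p = 0.000852). At 21 dpp its direction was opposite, with 2.14 and 2.23 CPM against 4.59 and 14.7 CPM (2.15 ± 0.45, adjusted p = 0.00476). Adcy2, an adenylyl cyclase, was lower in Mov10l1-/- at 21 dpp, with 1.18 and 1.04 CPM against 6.87 and 4.45 CPM (-2.11 ± 0.36, adjusted p = 0.00193). Gpr176, an orphan receptor, held 4.58 and 4.71 CPM in adult wild type and 1.35 and 1.42 CPM in adult Mov10l1-/- (-1.96 ± 0.23, adjusted p = 0.000171).

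Among the 6 cytoskeleton and adhesion genes (Arhgap32, Synpo, Kif26a, Shank3, Krt80 and Itgb4), 5 were lower at 9 dpp than at birth in Mov10l1-/-. The exception was Krt80, a keratin, with 15.5 and 13.3 CPM at 0 dpp and 6.41 and 5.84 CPM at 9 dpp (-0.71 ± 0.26, adjusted p = 0.0312). Arhgap32, a GTPase-activating protein, was higher in Mov10l1-/- at birth, with 753 and 751 CPM against 505 and 359.6 CPM (0.84 ± 0.16, adjusted p = 0.00977). At 21 dpp it was lower, with 11.6 and 21.9 CPM against 57.4 and 31.8 CPM (-1.19 ± 0.20, adjusted p = 0.00168). Synpo, an actin-associated protein, declined from 273 and 314 CPM at 0 dpp to 0.947 and 0.231 CPM in adult wild type, and from 209 and 225 CPM to 2.79 and 2.22 CPM in Mov10l1-/-. Itgb4, the beta subunit of the epithelial hemidesmosome integrin, held 7.53 and 9.08 CPM in Mov10l1-/- and 15.6 and 15.4 CPM in wild type at 0 dpp (-0.86 ± 0.16, adjusted p = 0.00982). Kif26a, an atypical kinesin, Shank3, a scaffold of the postsynaptic density, and Apbb1, an adaptor of the amyloid precursor protein, fell by 2.94, 2.62 and 2.15 on the log2 scale from 0 to 9 dpp in Mov10l1-/-.

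The 3 members named next were not highest at birth in every Mov10l1-/- comparison, all through the adult libraries. Serpina6, the corticosteroid-binding globulin, held 10.3 and 14.99 CPM in wild type and 7.09 and 5.81 CPM in Mov10l1-/- at 0 dpp, and stayed below 1 CPM in all 9 libraries of both genotypes at 9 and 13 dpp. In adults it held 1.57 and 0.878 CPM in wild type and 14.3 and 20.1 CPM in Mov10l1-/-, above its own level at birth (2.24 ± 0.24, adjusted p = 5.87e-06) and above wild type (3.51 ± 0.30, adjusted p = 3.05e-05). ENSMAUG00000011114, which has no symbol here, held 10.3 and 12.1 CPM at birth, 0 and 0.0758 CPM at 21 dpp, and 24.1 and 35.8 CPM in adults in Mov10l1-/-, against 1.68 and 0.647 CPM in adult wild type. The other, ENSMAUG00000018404, held 32.6 and 45.9 CPM at birth and 29.8 and 37.3 CPM in adults in Mov10l1-/-. Its mean was lower in adults than at birth on column totals, while the change fitted after TMM was positive, at 0.62 ± 0.18 (adjusted p = 0.01), and did not pass the test, so its sign depends on the scale.

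The rest with a symbol also fell after birth in Mov10l1-/- at 9 dpp, 8 of 8. Gnptab, which makes the mannose 6-phosphate tag of lysosomal enzymes, was lower in Mov10l1-/- at birth, with 169.8 and 168 CPM against 263 and 292 CPM (-0.68 ± 0.11, adjusted p = 0.00582), and overlapped between genotypes at 9 dpp. Scrn1, a secernin, held 27.3 and 26.2 CPM at birth and 11.4 and 10.99 CPM at 9 dpp in Mov10l1-/-, the smallest fall of a member with a symbol that passed the test (-0.73 ± 0.15, adjusted p = 0.00157). In adults it held 0.352 and 0.44 CPM against 5.63 and 9.43 CPM in wild type (-4.44 ± 0.36, adjusted p = 2.3e-05). Igsf10, an immunoglobulin superfamily protein, was higher in adult Mov10l1-/-, with 3.41 and 8.44 CPM against 0.631 and 0.277 CPM (3.36 ± 0.54, adjusted p = 0.000868). Zfhx3, a homeobox and zinc-finger transcription factor, held 183 and 223 CPM at birth and 28.5 and 38.9 CPM in adults in Mov10l1-/-. Zbtb12, a zinc-finger protein, was lower in Mov10l1-/- at birth (-0.72 ± 0.13, adjusted p = 0.00762), and D630045J12Rik, whose role is not given here, was higher (0.78 ± 0.12, adjusted p = 0.0044).

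Across all members the genotypes were compared at each age to ask how the loss of Mov10l1 bears on the birth-peaking genes. Because the wild-type libraries of these comparisons chose the members, the counts are descriptions. At 0 dpp 4 members were higher and 15 lower in Mov10l1-/- (background 1.0% and 0.931% of 16333 genes), with a median of 0.07 over the members and 0.02 over all genes. Both Mov10l1-/- libraries of 0 dpp share an animal code prefix that no wild-type library of that age carries, so genotype and prefix cannot be told apart there. The higher members were 22 and 12 without the first and the second of these libraries, and 9 and 0 without the first and the second wild-type library. Markers of Sertoli cells differed at this age too. The 7 measured list genes, none of them members, summed to 1765 to 2063 CPM in Mov10l1-/- and 2764 to 3267 CPM in wild type. Of the 7, 4 were lower and 0 higher. These genes were matched through the same symbols as the named members, so they are no fair sample for genotype. Their part in the members' differences was not tested. At 9 dpp 2 were higher and 4 lower (background 0.057% and 0.342% of 15776 genes), with a median of -0.10 over the members and 0.00 over all genes. The 6 were Lypd6b and 1 gene without a symbol that rose, and Egr4, Morc1, Gpr153 and 1 gene without a symbol that fell. When the 2 Mov10l1-/- libraries of that age, which carry 1 animal code, were summed into 1, 0 members passed the test in either direction, with 4 higher and 47 lower at an unadjusted p under 0.05 (background 1.78% and 7.59%), and 0 passed it when either of these libraries was left out. Without the first wild-type library 1 was higher and 1 lower, without the second 0 and 0, and without the third 4 and 17. The third is the one wild-type library whose animal code shares its prefix with both Mov10l1-/- libraries of that age. DESeq2 on the libraries as deposited called 3 higher and 25 lower (background 0.455% and 2.65%). At 13 dpp 181 members could be tested, of which 0 were higher and 1 lower by edgeR (background 0.0% and 0.121% of 13254 genes), with 2 higher and 27 lower at an unadjusted p under 0.05 (background 0.966% and 9.17%). DESeq2 called 0 higher and 5 lower there (background 0.0% and 1.66%). Same-numbered libraries of 13 dpp share a code prefix across genotypes, and a fit blocked on that number called 2 higher and 10 lower. The median at 13 dpp was 0.22 over the members and 0.02 over all genes. Leaving out any 1 library of 13 dpp gave 3 to 5 lower.

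At 21 dpp 188 members could be tested, of which 25 were higher and 26 lower (background 17.1% and 20.9% of 14834 genes). The median of the members was 0.29 after TMM and -0.03 on column totals, so its sign depends on the scale. Without the second Mov10l1-/- library of 21 dpp, 6 were higher and 15 lower. Some lists of somatic markers that are no members had higher sums in Mov10l1-/- at that age. The 7 Sertoli list genes summed to 4134 to 5962 CPM against 1485 to 2568 CPM. The 3 Leydig list genes, of which Ptgds is also on the Sertoli list, summed to 881 to 1058 CPM against 231 to 392 CPM. The 3 stroma and matrix genes summed to 95.3 to 130.0 CPM against 41.6 to 41.8 CPM. Other somatic sums overlapped. The 4 peritubular myoid genes summed to 235 to 356 CPM against 215 to 354 CPM. The 3 endothelial genes summed to 12.8 to 21.2 CPM against 11.5 to 20.2 CPM. The part of these markers was not tested. In adults 184 could be tested, of which 80 were higher and 31 lower (background 37.1% and 37.2% of 15761 genes). The members higher were 43.5% of those tested, close to the 44.0% of genes with at least 10 CPM at birth, and the members lower were 16.8% against 32.0%. The median was 0.91 over the members, 0.14 over all genes and 0.39 over those with at least 10 CPM at birth. A member could pass that filter through the genotype in which it was higher. The adult libraries also differed in markers of other cells. The 7 measured Sertoli list genes, none of them members, summed to 4662 to 5353 CPM in Mov10l1-/- and to 549.6 to 729 CPM in wild type. The single measured macrophage marker Csf1r stood at 40.3 and 29.6 CPM against 7.92 and 3.84 CPM. The part of these markers was not tested. List genes at 21 dpp and in adults were matched through the same symbols, so they are no fair sample for genotype.

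**Figure D5:**
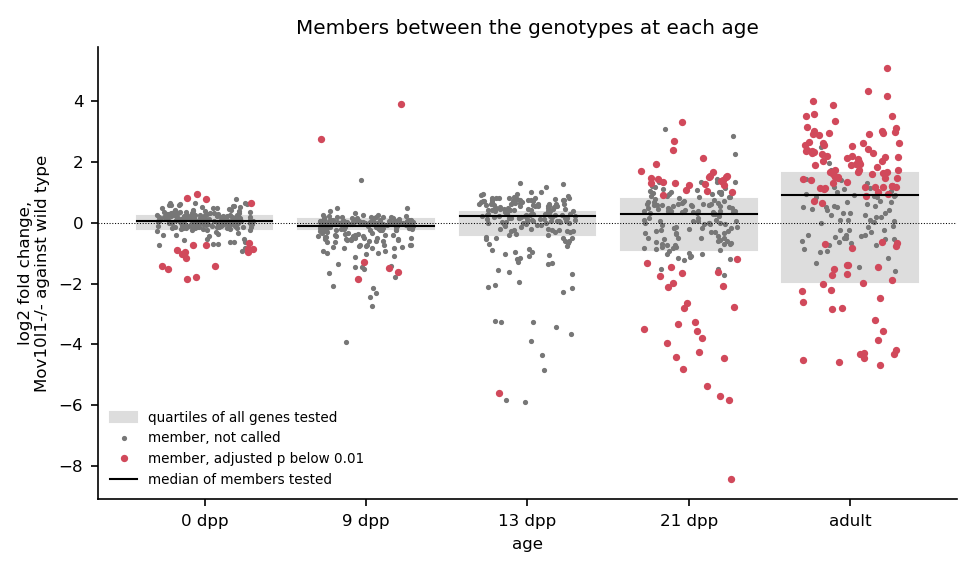
Log2 fold change of each member tested, Mov10l1-/- against wild type, at each age (points, spread sideways at random). Red points passed adjusted p under 0.01, black lines are the medians of the members tested, and grey boxes span the quartiles of all genes tested. Members lie close to 0 at birth and spread in both directions at 21 dpp and in adults, where the median of the members is 0.91.

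The course of single members across ages differed. For 32 members both Mov10l1-/- libraries were below every wild-type library at 9, 13 and 21 dpp (background 5.38% of the 9373 genes with 10 CPM at birth). The 11 of these with a symbol were Adcy2, Apbb1, D630045J12Rik, Dppa4, Egr4, Fbln1, Gpr176, Kdm1b, Morc1, Nxf7 and Shank3. Nxf7 was too low at 21 dpp to be tested, with 1 and 19 counts in wild type. Another 32 members were above every wild-type library at 21 dpp and in adults (background 22.7%), and the 5 with a symbol were Col1a1, Igsf10, Ltbp1, Serpina6 and Snai2. At 21 dpp Serpina6 had at most 2 counts in a wild-type library, and its Mov10l1-/- mean was 1.39-fold above a floor of 3 counts. At 21 dpp 13 members were below 1 CPM in both Mov10l1-/- libraries and above 1 CPM in both wild-type libraries (background 1.37%). Among them were Dppa4, Egr4 and Morc1, and 2 members showed the reverse (background 0.16%). The formula favours genes with low CPM at later wild-type ages, which brings members near 1 CPM. This background was not matched for that level, so nothing is drawn from the comparison. A member without a symbol, ENSMAUG00000006280, held 1.98 and 1.89 CPM in wild type and no count in Mov10l1-/- at 21 dpp. That is at least 16.5-fold lower against a floor of 3 counts per library.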

How the data were processed

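Whole-testis RNA was depleted of ribosomal RNA and sequenced from 21 samples, grouped by their titles. The authors aligned reads with STAR 2.7.3a to mesAur1 and deposited estimated counts per gene from featureCounts 2.0.0 over Ensembl exons, with reads on several places or genes split into fractions. Fractions were rounded for testing. The labels call the molecule polyA RNA although the protocol depletes ribosomal RNA, and the study's methods name a pair of depletion kits without saying which library had which.

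Genes were tested with edgeR 4.0.16 in R 4.3.3 (filterByExpr, TMM, quasi-likelihood F test, Benjamini-Hochberg adjusted p under 0.01): the 10 Mov10l1-/- libraries together for change since birth, the libraries of each age for genotype, and the 9 libraries of 0 and 9 dpp for the interaction. DESeq2 1.42.0, other scalings, filters, thresholds and left-out libraries were alternatives. On simulated counts for 9 against 0 dpp in Mov10l1-/- (15771 genes), 191 of 200 changed genes were recovered with 0 false calls. Depth is the column total, a floor is 3 counts, floors cover counting error alone, and fitted fold changes of genes with 3 counts or fewer in a group depend on the prior count. Each SE of an edgeR fit was derived as the size of the log2 fold change divided by the square root of F, and is approximate at low counts. Adjusted p-values measure the spread between libraries, which may be technical.

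The members, gene lists and roles were chosen with earlier results of these data known. The rule for naming took members with a symbol: the 15 with the largest ratio, the 10 with the highest lowest CPM at birth, those on any of 19 gene lists, the 3 with the largest change each way among those that passed the test between genotypes at each age, the 5 largest and 5 smallest falls from 0 to 9 dpp in Mov10l1-/-, and those not highest at birth there, a few without a symbol by identifier. Kif26a, Shank3, Gpr176, Plag1, Apbb1 and ENSMAUG00000014337 fall outside it and were added after their values were seen. Symbols for 1044 genes came from the deposited table and the study's gene tables, 1 identifier matching the RefSeq table. Of 489 list entries 73 had an identifier, and coverage was at most 46.4% of a list, so no share of a list was taken. The lists with members were those of gonocytes (Dppa4), stroma and matrix (Col1a1, Col12a1, Tnc and Fbln1) and fetal growth (Igf2), and the other 16 had none.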

Additional observations from a re-analysis of the deposited data

Results flagged for a closer look

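For 5 members with a symbol, the change from 0 to 9 dpp differed between genotypes by the interaction term of edgeR's quasi-likelihood fit. The fall was larger in Mov10l1-/- for Egr4, by -1.38 ± 0.18 (log2, SE, adjusted p = 0.00405), for Chd7, by -1.71 ± 0.19 (adjusted p = 0.00208), for Morc1, by -1.63 ± 0.25 (adjusted p = 0.00615), and for D630045J12Rik, by -1.28 ± 0.20 (adjusted p = 0.00615). For Lypd6b the fall was smaller in Mov10l1-/-, by 2.21 ± 0.30 (adjusted p = 0.00427). Over all 200 members 3 were more positive and 7 more negative (background 0.426% and 1.03% of 16887 genes). The wild-type libraries of this term chose the members, and both Mov10l1-/- libraries of 9 dpp carry 1 animal code. With these summed into 1, the adjusted p was 0.0211 for Egr4, 0.0137 for Chd7, 0.0296 for Morc1, 0.0321 for D630045J12Rik and 0.0187 for Lypd6b, none of which passed.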

How the results depend on the processing

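The fall since birth in Mov10l1-/- kept its direction under each alternative run, and its counts moved by less than 1.5 times. Of the 200, 180 to 199 members were lower at 9 dpp when 1 library was left out, 189 to 199 at 13 dpp, 191 to 198 at 21 dpp and 185 to 190 in adults. DESeq2 gave 197, 198, 197 and 189, and summing the Mov10l1-/- libraries of 9 dpp gave 186, 199, 196 and 189. Leaving out 1 library, 172 to 200 members were chosen again, 197 to 198 did not overlap in Mov10l1-/-, and the formula applied to Mov10l1-/- shared 62 to 71 genes. With 9 dpp as the one later age, 113 of the members were chosen. Counts between genotypes moved far more, and the cause was not tested. At 0 dpp the higher members were 10 by DESeq2, 21 with no filter, 11 at adjusted p under 0.05 and 0 at 2-fold or more, and the lower ones 25 with no filter and 7 at 2-fold or more. At 9 dpp, with the Mov10l1-/- libraries summed, 0 were higher and 0 lower; with wild-type replicates 1 and 2 alone, 4 were higher and 17 lower; the lower ones were 25 by DESeq2, 8 with no filter and 18 at adjusted p under 0.05. At 13 dpp the lower ones were 5 by DESeq2, 2 with RLE size factors, 10 with no filter and 5 at adjusted p under 0.05. At 21 dpp the higher ones were 56 with no filter and 46 at adjusted p under 0.05. For the interaction, more positive and more negative members were 1 and 0 with the libraries summed, 8 and 18 by DESeq2, 7 and 17 with no filter, 7 and 17 with wild-type replicates 1 and 2, and 9 and 21 at adjusted p under 0.05.

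Leaving out 1 library, 0 to 22 were higher and 12 to 23 lower at 0 dpp, 0 to 4 and 0 to 17 at 9 dpp, 0 to 1 and 3 to 5 at 13 dpp, 6 to 28 and 15 to 24 at 21 dpp, 63 to 79 and 25 to 32 in adults, and 0 to 7 and 0 to 17 for the interaction. Without Mov10l1-/- replicate 1 of 0 dpp 22 were higher, and without wild-type replicate 2 there 0 were. Same-numbered libraries did not deviate together (correlations of 0.0532, -0.0826, 0.0143, -0.0922 and 0.0483 over 18063 genes at the 5 ages), so the numbers were not taken to pair the samples, although at 13 dpp same-numbered libraries share a code prefix whose meaning the labels do not give. At 21 dpp the numbers do not follow the prefix, which wild-type replicate 2 and Mov10l1-/- replicate 1 share. In these libraries the 10 most abundant genes took 53.0 and 52.6% of counts. In wild-type replicate 1 and Mov10l1-/- replicate 2 they took 28.7 and 38.8%, and the part of the prefix was not tested. With the replicate number as a block, 16 members were higher and 26 lower at 0 dpp, 4 and 20 at 9 dpp, 2 and 10 at 13 dpp, and 7 more positive and 18 more negative for the interaction. The shallowest library, of wild type at 13 dpp, has 3550217 counts, where 3 counts are 0.845 CPM.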
